A study of Mus musculus with 2 samples.

Results

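The NF-kB subunits and their feedback inhibitors are 10 genes, of 31053 in the count tables, and were described here in single cells of the inflamed mouse colon. The members were taken by symbol and were found in both libraries. They comprise the 5 subunit genes Nfkb1, Nfkb2, Rel, Rela and Relb and the 5 inhibitor genes Nfkbia, Nfkbie, Nfkbiz, Tnfaip3 and Tnip1. The cells came from colons of chimeric mice, in which CD45.1 recipients carried bone marrow of CD45.2 donors from strains crossed to C57BL/6. The donor was either IL-10R KO, which lacks the IL-10 receptor (Il10rb), or IL-10R/CerS2 DKO, which also lacks ceramide synthase 2, an enzyme that makes very long chain ceramides, so that both groups share the loss of the receptor and differ by Cers2. Recipient cells keep the receptor and Cers2. Cells were sorted for CD45.2, CD11b, CD11c and CD64, with the stated purpose of leaving out neutrophils, T cells and B cells. There was 1 library per genotype, called KO and DKO below, the number of mice behind each is not given in the sources used here, and genotype cannot be told apart from mouse, sort or library. For this reason no test was run, and the 95% intervals given in parentheses cover counting error only.

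NF-kB transcription factors are dimers of Rel-family proteins. In a resting cell they are held in the cytoplasm by IkB proteins, and receptors for cytokines and microbial products free them by way of the IKK kinases, which mark the IkB proteins for destruction. The dimers then switch on inflammatory genes and, among them, genes for their own inhibitors, which ends the response. In gut macrophages, IL-10 is known as a main signal that keeps inflammatory transcription low.

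Promoter sequence was examined first, since several of these genes are known targets of the factor they encode or inhibit. RefSeq promoters (GRCm38.p6, 250 bases before to 50 after each start site) were listed for 7 of the 10 members, and Nfkb1, Relb and Nfkbiz were not listed. The kB consensus, the degenerate motif of 10 bases bound by NF-kB, was found on either strand in 6 of these 7 members and in 9.55% of all 27025 genes in the table. The member without it was Rela. The looser pattern GGGNNNNNCC, which every consensus match also fits, on either strand, was in all 7 and in 53.5% of genes. The 150 bases before the start site are shown for the gene whose level differed most between the libraries (Tnip1), for the classical IkB gene (Nfkbia) and for the subunit that differed most between cell classes (Rel). Capitals mark the kB consensus matches, overlapping ones joined. All 3 lie upstream of genes on the minus strand, at chr12:55492648-55492797 for Nfkbia, chr11:54962941-54963090 for Tnip1 and chr11:23770970-23771119 for Rel.
Nfkbia: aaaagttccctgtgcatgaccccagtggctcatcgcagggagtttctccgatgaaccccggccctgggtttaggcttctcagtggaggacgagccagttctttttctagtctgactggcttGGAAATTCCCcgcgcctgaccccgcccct
Tnip1: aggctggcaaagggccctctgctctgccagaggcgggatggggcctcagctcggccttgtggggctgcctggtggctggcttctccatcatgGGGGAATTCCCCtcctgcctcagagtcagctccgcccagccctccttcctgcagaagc
Rel: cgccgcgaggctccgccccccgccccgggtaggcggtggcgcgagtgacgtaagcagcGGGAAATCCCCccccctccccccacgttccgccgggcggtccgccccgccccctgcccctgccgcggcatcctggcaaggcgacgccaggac
In Tnip1, 4 overlapping matches began 58 to 56 bases before the start site and formed a palindrome, which reads the same on both strands. Nfkbia had its match 29 bases before the start site, and Rel had 3 overlapping ones from 92 bases before it. Tnfaip3 had matches 125 and 12 bases before its start site. A match describes the letters of these windows and is not a measured binding site.

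After filtering, 2443 KO cells (median depth 4715 UMIs) and 730 DKO cells (median depth 3722) were kept, and the libraries shared 1 barcode. UMIs are tags that let each RNA molecule be counted a single time. The deposit labels all cells colon macrophages, but by marker genes 62.1% of KO cells and 43.6% of DKO cells were monocyte/macrophage-like, and the rest held dendritic cell-like, neutrophil-like, B cell-like and T cell-like clusters and 3 clusters that stayed unnamed. In the monocyte/macrophage-like class, Cers2 was counted 443 times in KO and 0 times in DKO, at least 30.1-fold lower at a floor of 3 counts. Il10rb was counted 39 and 8 times (4.49 and 4.53 CPM), which checks nothing here, since the part of the gene that was deleted is not given in the sources used. In B cell-like, T cell-like, neutrophil-like and unnamed cluster 4 cells the macrophage genes C1qa, C1qb and C1qc reached at most 2.35% of their monocyte/macrophage-like level, which bounds the free RNA of those genes in the droplets. Lyz2 went above that bound in T cell-like cells of KO, with 116 UMIs or 6.17% of the monocyte/macrophage-like level, against 0.13% in those of DKO.

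**Figure D1:**
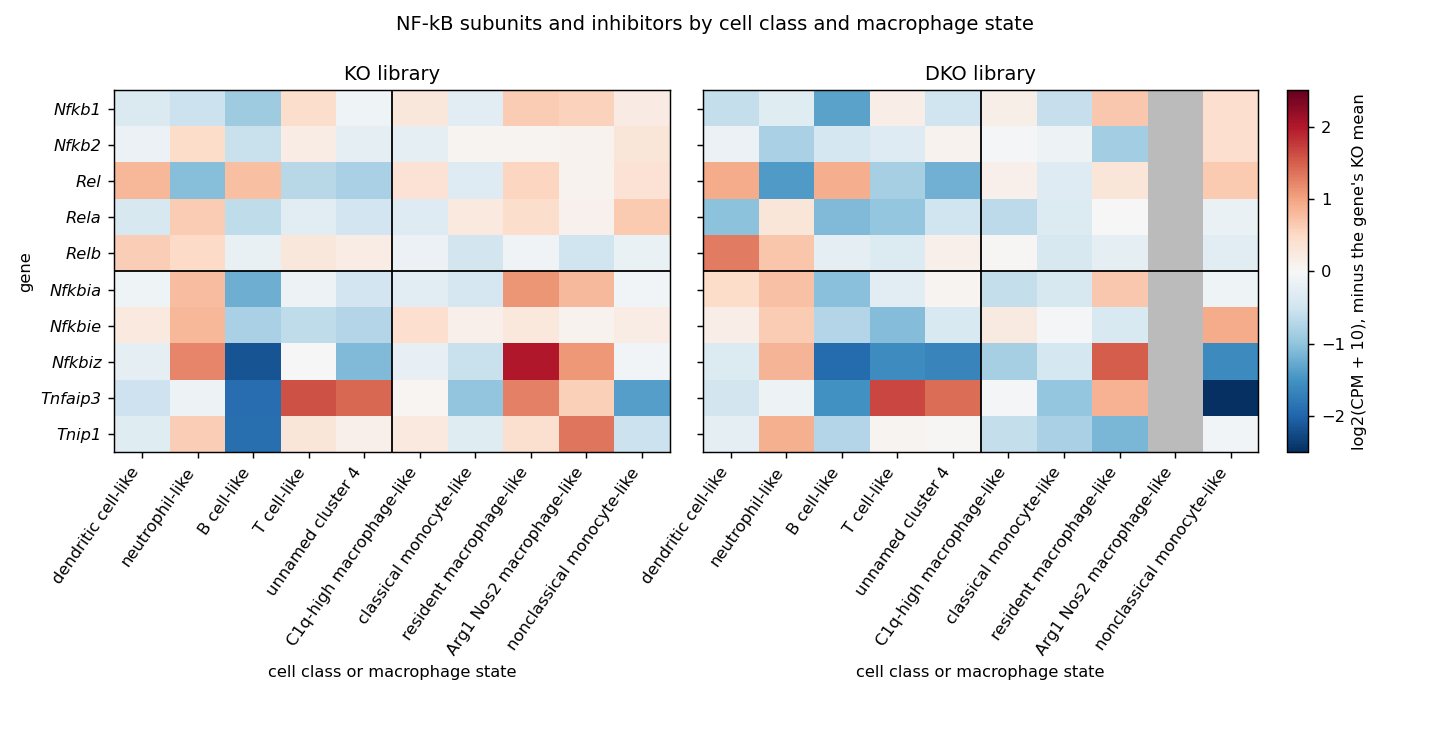
Levels of the 10 genes (rows, subunits above the line and inhibitors below) in cell classes and, right of the vertical line, macrophage states (columns) of the KO and DKO libraries. Colour is log2(CPM + 10) minus the mean of the gene over the KO columns, and grey marks the Arg1 Nos2 state of DKO with 1 cell. Rel is above its mean in dendritic cell-like and B cell-like cells, Tnfaip3 in T cell-like cells, and Nfkbiz in the resident state of both libraries.

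Among cell classes, each gene had an order of its own, and for 9 of the 10, all but Nfkb2, the named class with the highest level was the same in both libraries. Levels are UMIs summed over the cells of a class per 1000000 of all their UMIs (CPM). They are compared for a gene between classes, never between genes, and orders are given among the 5 named classes, since the unnamed clusters held higher or lower levels of several members. Rel, which encodes the subunit c-Rel, was highest among the named classes in dendritic cell-like cells, at 1118 CPM in KO (1053 to 1185) and 1204 in DKO (1116 to 1298), and in B cell-like cells, at 1057 (981 to 1138) and 1179 (1082 to 1283). The intervals of these classes overlapped in each library. Monocyte/macrophage-like cells held 704 and 664 CPM of Rel, T cell-like cells 386 and 351, and neutrophil-like cells 293 and 229. The lowest of these values was that of neutrophil-like cells in both libraries.

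Relb, a subunit of the slower, non-canonical arm, was highest among the named classes in dendritic cell-like cells as well, at 147 CPM in KO (125 to 173) and 242 in DKO (203 to 286). The neutrophil-like level in KO, 133 CPM (93.9 to 182), did not differ from it beyond the intervals. Nfkb1, the gene of a precursor that is cut to a DNA-binding subunit, was, of the named classes, highest in T cell-like cells (445 and 370 CPM) and in monocyte/macrophage-like cells (386 and 364), and lowest in B cell-like cells (173 and 123). Rela, which encodes the main activating partner of Nfkb1, ranged in KO from 51.9 CPM in B cell-like cells to 140 in neutrophil-like cells. Nfkb2, the precursor of the non-canonical arm, ranged in KO from 59.3 CPM in B cell-like cells to 129 in neutrophil-like cells. In DKO the neutrophil-like value of Nfkb2 rested on 4 UMIs.

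Of the named classes of KO, B cell-like cells had the lowest level of all 5 inhibitors. Nfkbia, which encodes the IkB protein that is destroyed and remade in each response, stood in neutrophil-like cells at 988 CPM for KO (876 to 1110) and 962 for DKO (763 to 1198), at 595 and 532 in monocyte/macrophage-like cells, and at 242 and 273 in B cell-like cells. Nfkbiz, a nuclear IkB protein that steers a subset of target genes, had 328 CPM in neutrophil-like cells of KO and 253 of DKO, against 22.2 and 28.1 in B cell-like cells. Tnfaip3, a ubiquitin-editing enzyme that shuts off the signal upstream of IKK, had its highest level among the named classes in T cell-like cells, at 659 CPM in KO (596 to 727) and 695 in DKO (569 to 839). Unnamed cluster 4, which held T cell markers but was led by Ikzf2, Xcl1 and Nkg7, followed at 583 and 570 CPM, within the intervals. Monocyte/macrophage-like cells had 221 and 211 CPM of Tnfaip3, and B cell-like cells 48.9 and 67.1. Nfkbie, another IkB gene, was highest among the named classes in neutrophil-like cells (248 and 217 CPM), below unnamed cluster 9 (961 and 908). Tnip1, whose protein binds ubiquitin chains and works with Tnfaip3, ranged in KO from 17.8 CPM in B cell-like cells to 147 in neutrophil-like cells.

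Set against the other kept cells of the library, 6 of the 10 members were at least 1.5-fold higher in KO neutrophil-like cells, where 14.9% of 8999 genes were, and 2 were lower, Nfkb1 and Rel, where 62.6% of genes were. In DKO 5 were higher against 17.1% of 6016 genes, and 1, Rel, was lower against 59.8%. The median gene was at -1.18 on the log2 scale in that KO comparison and the median member at 0.64. In B cell-like cells 7 members were lower in KO and 6 in DKO, against 34.2% and 32.9% of genes, and Rel alone was higher, by 0.64 and 0.75 on the log2 scale, against 26.2% and 24.3%. All 5 inhibitors were among the 7 lower members in KO, with log2 ratios from -2.81 for Nfkbiz to -1.12 for Nfkbie. In DKO Tnip1, at -0.32, was not past 1.5-fold. In T cell-like cells Tnfaip3 was 1.54 above the other cells in KO and 1.72 in DKO on the log2 scale, and Rel was 0.89 and 1.15 below.

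The share of member UMIs that came from the 5 inhibitor genes was also compared between classes. It leans on the genes with the most UMIs and does not measure inhibition. In B cell-like cells of KO, Rel alone gave 713 of the 1231 member UMIs. In neutrophil-like cells, inhibitor genes held 67.5% of member UMIs for KO (64.1 to 70.7) and 69.1% for DKO (62.5 to 75.2). The share was 57.5% and 60.1% in T cell-like cells, 48.7% and 46.7% in monocyte/macrophage-like cells, and 38.1% and 41.9% in dendritic cell-like cells. It was lowest in B cell-like cells, at 22.1% in KO (19.8 to 24.5) and 25.2% in DKO (22.4 to 28.1). The order of the 5 named classes was the same in both libraries, with the neutrophil-like interval of DKO overlapping that of T cell-like cells.

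Unnamed cluster 9 stood apart. It was led by Gm26917, Lars2, Tnf and Jun, its cells were shallow, with medians of 725 UMIs (KO) and 810 (DKO), and it held the highest level of 7 members in KO, among them Nfkbia at 2266 CPM and Nfkb1 at 688. Its level of Relb in DKO, 316 CPM, was also above that of the named classes, with an interval that overlapped that of dendritic cell-like cells. The summed level of the 20 immediate early and stress genes on a list was 26000 CPM there in KO and 23874 in DKO, against 4862 to 14693 in the other classes of KO. Their part in the member levels was not tested, and this cluster was left out of the plots.

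**Figure D2:**
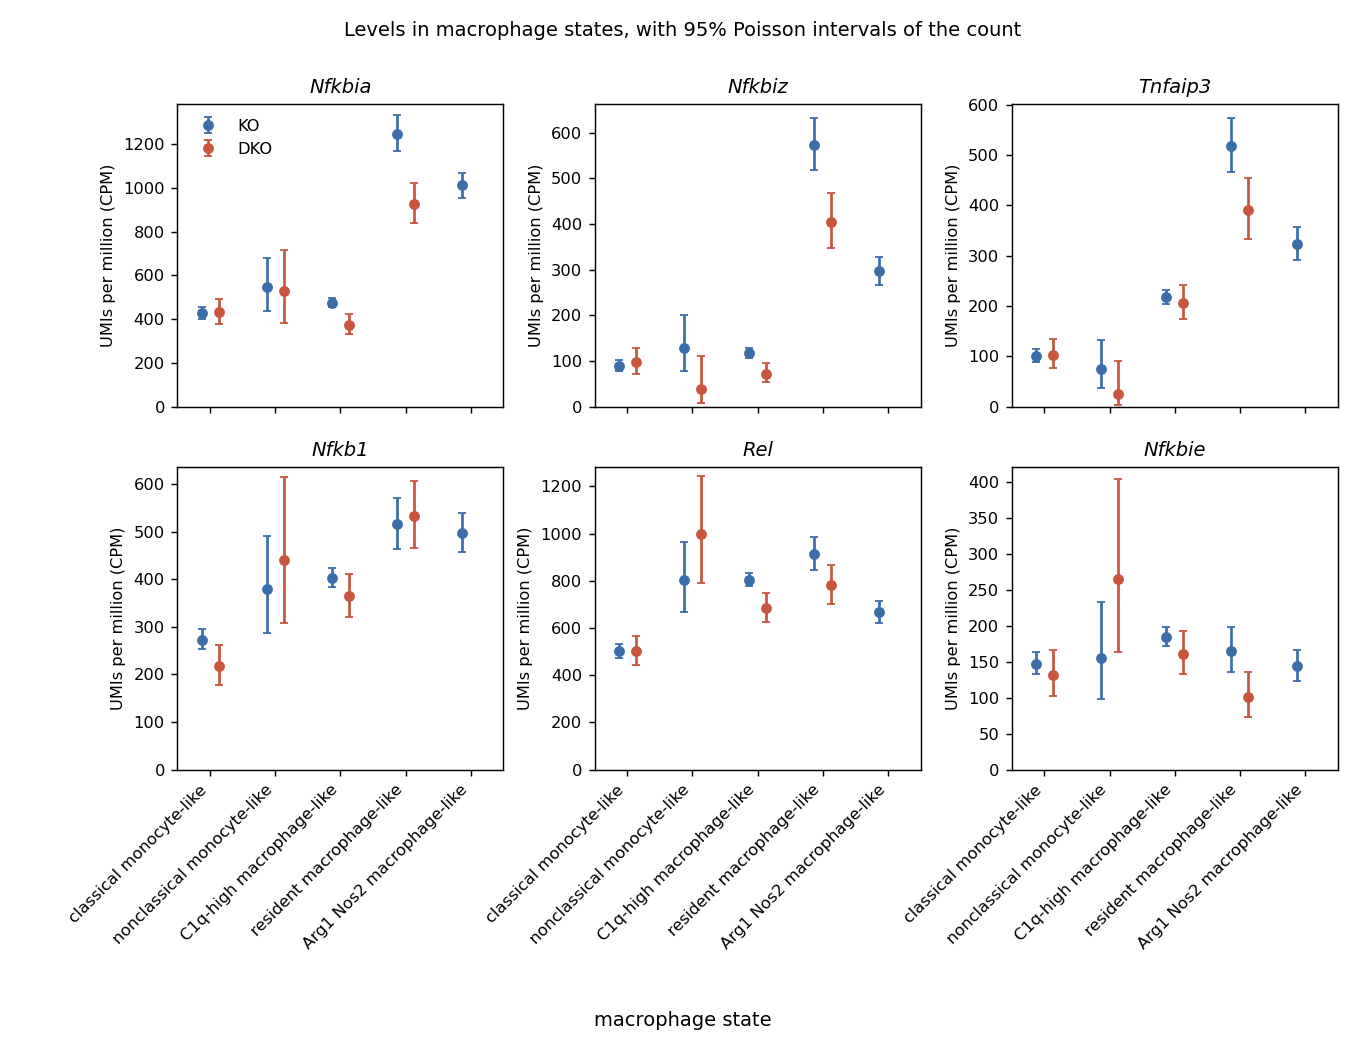
Levels of 6 of the genes in the macrophage states of KO (blue) and DKO (red), in CPM, with the 95% Poisson interval of each count as bars; the Arg1 Nos2 state of DKO had 1 cell and is not drawn. Nfkbia, Nfkbiz and Tnfaip3 are highest in the resident state and, in KO, next highest in the Arg1 Nos2 state. In KO, Rel and Nfkbie vary less between states. In DKO, Nfkbie runs from 101 CPM in the resident state to 265 in nonclassical monocyte-like cells, there from 21 UMIs.

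Among monocyte/macrophage-like cells, the inhibitors Nfkbia, Nfkbiz and Tnfaip3 marked the resident and the Arg1 Nos2 states off from the rest. The states were clustered without the members and without the other pathway genes listed here. Their names came from marker lists that did hold some listed genes, Nos2 and Cxcl3 for the Arg1 Nos2 state and Nr4a1 for nonclassical monocyte-like cells. KO and DKO held 606 and 101 C1q-high macrophage-like cells, 487 and 100 classical monocyte-like cells, 164 and 90 resident macrophage-like cells (led by Mrc1 and C4b, named on 3 markers), 179 and 1 Arg1 Nos2 macrophage-like cells, and 46 and 23 nonclassical monocyte-like cells. A further cluster of 35 KO and 3 DKO cells, led by Ccl8, also had C1q-high markers, and held 0 to 12 UMIs of each member in KO. Its members summed to 680 CPM in KO (517 to 880), the lowest of the states. Against the other monocyte/macrophage-like cells 9 of 10 members were at least 1.5-fold lower there, against 41.1% of genes, and 0 were higher, against 20.9%.

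In the resident state Nfkbiz had 573 CPM in KO (519 to 632) and 404 in DKO (347 to 468), against 116 and 72.0 in the C1q-high state and 88.3 and 96.8 in classical monocyte-like cells. Nfkbia had 1248 CPM in KO (1167 to 1333) and 925 in DKO (837 to 1020), against 474 and 374 in the C1q-high state. Tnfaip3 had 517 CPM in KO (465 to 572) and 390 in DKO (334 to 454), against 217 and 205. In each library these intervals did not overlap those of the C1q-high or classical monocyte-like states. Against all other monocyte/macrophage-like cells the log2 ratio was 2.09 in KO and 2.35 in DKO for Nfkbiz, 1.22 and 1.20 for Nfkbia, and 1.41 and 1.36 for Tnfaip3. Nfkb1 was 0.46 and 0.79 higher and Rel 0.41 and 0.32. In KO 3 of 10 members were past 1.5-fold higher, against 26.4% of 7778 genes, and in DKO 4 of 10 against 24.7% of 4106 genes. Past 1.5-fold lower were 0 members in KO and 2 in DKO (Nfkb2 and Nfkbie), against 13% and 13.7%. The count of members was thus near the background, while the ratios for Nfkbiz, Nfkbia and Tnfaip3 were above the median gene, at 0.19 in KO and 0.12 in DKO. The 20 immediate early and stress genes summed to 15375 CPM in the resident state of KO and 13604 of DKO, against 6420 to 8175 in the other main states of KO. Their part in the inhibitor levels was not tested.

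In the Arg1 Nos2 state of KO, 4 of 10 members were at least 1.5-fold higher than in the other monocyte/macrophage-like cells, against 12.3% of genes, and none was lower, against 26.8%. All 4 were inhibitors. Tnip1 had 249 CPM (221 to 279) against 112 in the C1q-high state, 126 in the resident state and 73.3 in classical monocyte-like cells, and its interval overlapped none of theirs. Its log2 ratio to the other monocyte/macrophage-like cells was 1.33, that of Nfkbiz 0.98, that of Nfkbia 0.94 and that of Tnfaip3 0.66. The 5 subunits summed were 0.10 higher (0.02 to 0.17) and the 5 inhibitors 0.81 (0.75 to 0.88). This state had the lowest summed level of the immediate early and stress genes among the main KO states, 6420 CPM.

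Of the main states, classical monocyte-like cells were at the low end. Against the other monocyte/macrophage-like cells, 6 of 10 members were at least 1.5-fold lower in KO and 3 in DKO, against 17% and 18.5% of genes, and none was higher, against 11.7% and 11%. Nfkb1, Nfkbiz and Tnfaip3 were lower in both libraries, with log2 ratios of -0.65 and -0.97, -1.19 and -0.92, and -1.39 and -1.31. Rela was an exception in KO, 0.38 higher (0.15 to 0.60), with 0.02 in DKO (-0.62 to 0.60). Nonclassical monocyte-like cells had little Tnfaip3, at 74.4 CPM in KO and 25.2 in DKO, from 11 and 2 UMIs. In C1q-high cells Nfkbiz was lower than in the other monocyte/macrophage-like cells, by 0.92 in KO and 1.60 in DKO on the log2 scale, while Rel was 0.39 higher in KO and 0.07 in DKO.

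The inhibitor share of member UMIs was 60.3% in the resident state of KO (58.5 to 62.0), 54.9% in that of DKO (52.3 to 57.5), and 58.8% in the Arg1 Nos2 state of KO. It was 43.5% and 40.4% in the C1q-high state, 44.6% and 46.5% in classical monocyte-like cells, and 38.9% and 35.5% in nonclassical ones.

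**Figure D3:**
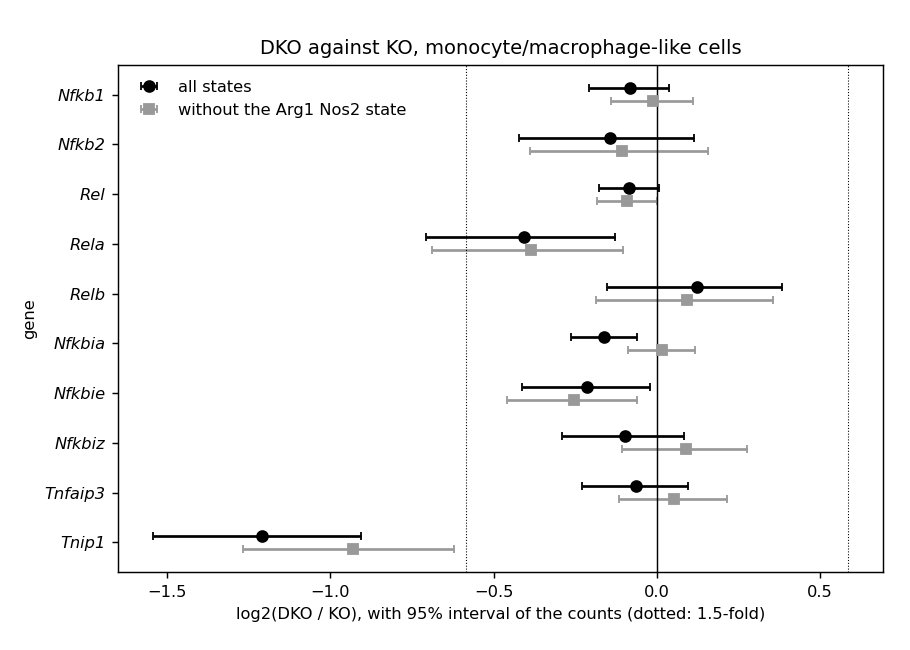
Log2 ratio of DKO over KO for each gene in monocyte/macrophage-like cells (black circles) and in the same cells without the Arg1 Nos2 state (grey squares), with 95% intervals of the counts; dotted lines mark 1.5-fold. Tnip1 lies at -1.21 and -0.93, beyond 1.5-fold, and the other genes lie between -0.41 and 0.12.

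The comparison of DKO with KO sets a donor without Cers2 beside a donor with it, both lacking the IL-10 receptor. With 1 library per genotype, a difference cannot be assigned to Cers2 apart from mouse, sort or library. In monocyte/macrophage-like cells Tnip1 was lower in DKO, with an interval beyond 1.5-fold, while for 8 of the other members the whole interval lay inside 1.5-fold. These values pool states in unlike shares. The resident state was 10.8% of these cells in KO and 28.3% in DKO, and the Arg1 Nos2 state 11.8% and 0.3%. With states weighted as in KO, Nfkbiz moved from -0.10 to -0.45, while Tnip1 moved from -1.21 to -0.90 and Nfkb2 from -0.14 to -0.02. Of 8206 genes with at least 50 UMIs in these cells, 7.01% were at least 1.5-fold lower in DKO and 8.91% higher. Among the 10 members 1 was lower, Tnip1, and 0 were higher, which is near the background. The median gene was at 0.09 on the log2 scale and the median member at -0.12.

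Tnip1 had 1040 UMIs in 1517 KO cells and 91 in 318 DKO cells. The level was 120 CPM in KO (113 to 127) and 51.5 in DKO (41.5 to 63.2), a log2 ratio of -1.21 (-1.54 to -0.91), and 143 of the 8206 genes, or 1.74%, were lower still. The intervals of the 2 libraries lay well apart. No cell held more than 9 of these UMIs in KO or 4 in DKO. After each cell was thinned to 1500 UMIs, a Tnip1 UMI was left in 15.8% of the cells in KO (13.99 to 17.8) and in 7.38% in DKO (4.68 to 10.96), against 38.8% and 22.6% before thinning. C1q-high cells had 112 CPM in KO and 58.1 in DKO (log2 ratio -0.93, -1.44 to -0.49), and the resident state 126 and 36.7 (-1.74, -2.64 to -0.996). In classical monocyte-like cells the levels were 73.3 and 48.4 CPM (-0.58, -1.27 to 0.01), an interval that includes 0. Nonclassical monocyte-like cells had 60.9 and 88.3 CPM, higher in DKO but from only 9 and 7 UMIs (0.56, -1.12 to 2.13). In the resident state 7 of 3267 genes were lower than Tnip1. When members and listed genes were kept in the clustering, the Tnip1 ratio in that state was -1.18 (-1.91 to -0.53). The KO-rich Arg1 Nos2 state held 28.8% of the Tnip1 UMIs of KO monocyte/macrophage-like cells and 13.8% of all their UMIs, and without it the log2 ratio was -0.93 (-1.27 to -0.62).

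**Figure D4:**
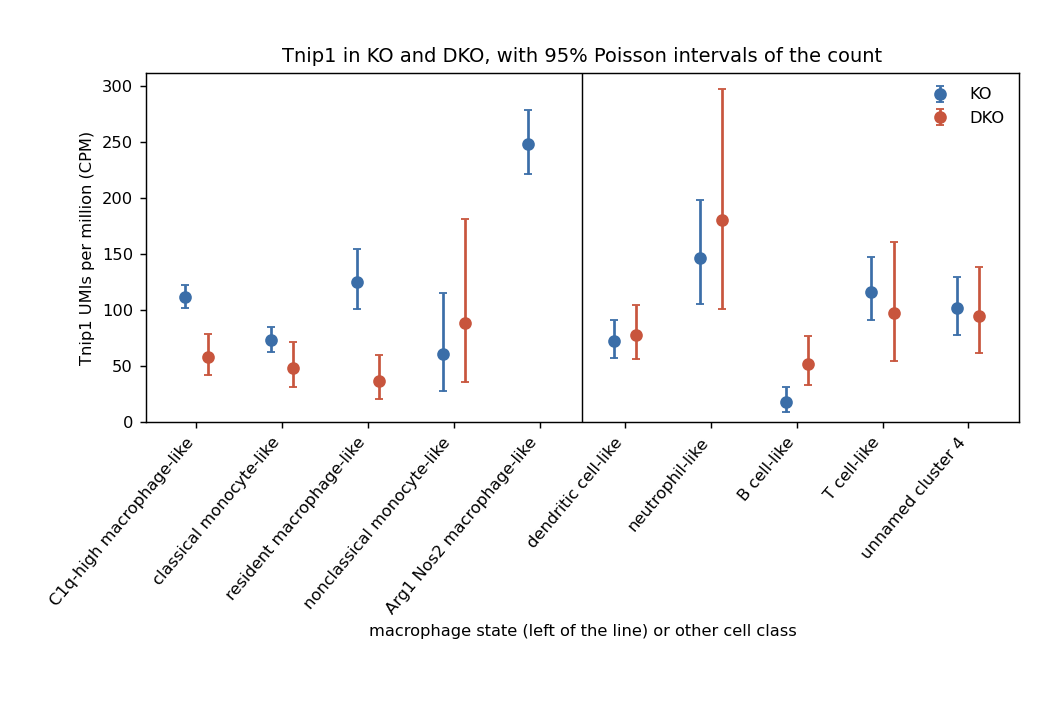
Tnip1 level, in CPM, in macrophage states (left of the line) and other cell classes (right) of KO (blue) and DKO (red), with the 95% Poisson interval of each count; the Arg1 Nos2 state of DKO had 1 cell and is not drawn. The KO and DKO intervals are apart in the C1q-high and resident states, with DKO lower, and in B cell-like cells, with DKO higher from 12 and 24 UMIs. They overlap in dendritic cell-like, neutrophil-like and T cell-like cells. Of the macrophage states, nonclassical monocyte-like cells, with 9 and 7 UMIs, have the higher value in DKO, as do dendritic cell-like and neutrophil-like cells among the classes.

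Outside the monocyte/macrophage-like cells, Tnip1 was not lower in DKO by 1.5-fold in any named class. It had 72.7 CPM in KO and 77.7 in DKO in dendritic cell-like cells (log2 ratio 0.10, -0.48 to 0.65), 147 and 180 in neutrophil-like cells (0.33, -0.66 to 1.18), and 117 and 97.4 in T cell-like cells (-0.22, -1.17 to 0.56). In B cell-like cells it was 17.8 and 51.9 CPM, from 12 and 24 UMIs, and 1 DKO cell held 10 of the 24. These intervals are wide, and whether the ratio differs between classes was not tested. Tnip1 lies on the minus strand at chr11:54910785-54962917 (GRCm38), and the 9 other genes within 500000 bases that had at least 50 UMIs had log2 ratios from -0.41 to 0.36. None was past 1.5-fold.

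**Figure D5:**
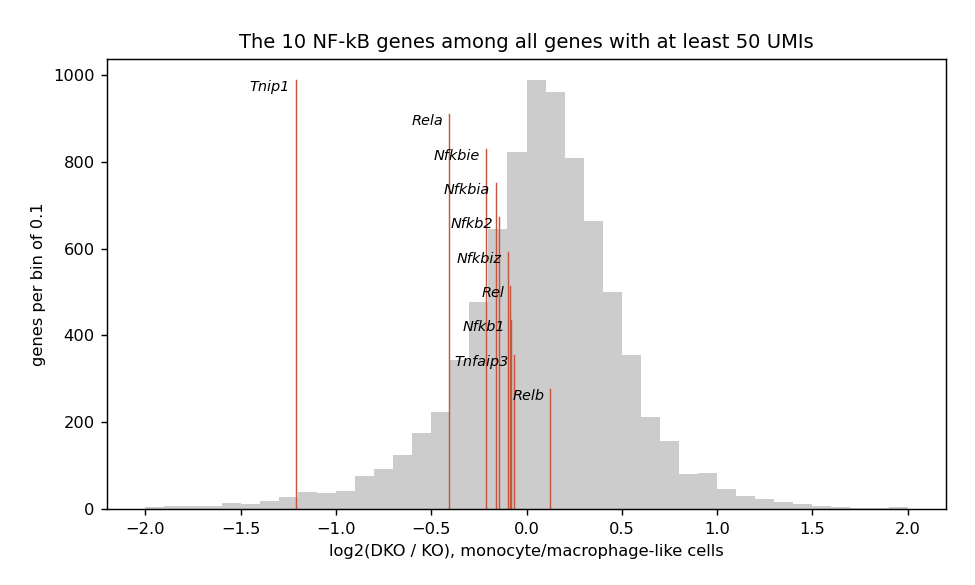
Number of genes per bin of 0.1 in the log2 ratio of DKO over KO, among 8206 genes with at least 50 UMIs in monocyte/macrophage-like cells, with red lines at the 10 NF-kB genes. The axis leaves out 64 genes beyond 2 in size; Tnip1 is in the lower tail and the other 9 are within the bulk.

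Of the subunits in these cells, Rel had 704 CPM in KO (687 to 722) and 664 in DKO (626 to 703), a log2 ratio of -0.09 (-0.18 to 0.00). Nfkb1 was at -0.08 (-0.21 to 0.04), Nfkb2 at -0.14 (-0.42 to 0.11) and Relb at 0.12 (-0.15 to 0.38). These 4 intervals lie inside 1.5-fold on either side. Rela had 87.3 CPM in KO and 65.7 in DKO, at -0.41 (-0.71 to -0.13), and was at -0.65 (-1.23 to -0.15) in classical monocyte-like cells, -0.38 in the C1q-high state and -0.47 in the resident state. It was also below 0 in dendritic cell-like cells (-0.74, -1.55 to -0.03), where 10.7% of 3253 genes were past 1.5-fold lower. That value moved to -0.41 (-1.09 to 0.21), inside 1.5-fold, at a clustering resolution of 0.8, and its interval also reached past 0 under 4 other alternatives.

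Among the other inhibitors, Nfkbie was at -0.21 (-0.41 to -0.02), Nfkbia at -0.16 (-0.26 to -0.06), Nfkbiz at -0.10 (-0.29 to 0.08) and Tnfaip3 at -0.06 (-0.23 to 0.10). The pooled value of Nfkbia depended on how the states were counted. The Arg1 Nos2 state held 23.5% of its KO UMIs, and the value was 0.02 (-0.09 to 0.12) without that state. The resident state held 17.1% of its UMIs in KO and 42.9% in DKO, and with states weighted as in KO the value was -0.25. Within states the inhibitors were lower in DKO in the resident state, where Nfkbia was at -0.43 (-0.61 to -0.26), Nfkbiz at -0.50 (-0.77 to -0.25), Tnfaip3 at -0.40 (-0.68 to -0.14) and Nfkbie at -0.70 (-1.24 to -0.20). In that state 9 of 10 members were below 0, with a median of -0.45 against 0.01 for all genes. Past 1.5-fold were Tnip1, Nfkbie and the subunit gene Nfkb2 (-1.04, from 68 and 20 UMIs), 3 of 10 against 6.83% of genes, and none was higher, against 6.49%. The immediate early and stress genes there summed to 15375 CPM in KO and 13604 in DKO, and their part was not tested. In the C1q-high state Nfkbiz was at -0.68 (-1.14 to -0.28) and Nfkbia at -0.34 (-0.53 to -0.16), 2 of 10 members counting Tnip1 being past 1.5-fold, against 8.65% of genes, and none was higher, against 8.24%. In classical monocyte-like cells Nfkbia was at 0.02 (-0.20 to 0.22).

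In dendritic cell-like cells Relb and Nfkbia were higher in DKO. For Nfkbia this was the other way from the pooled value in monocyte/macrophage-like cells, which was near 0, at 0.02, without the Arg1 Nos2 state. Relb was counted 148 times in KO and 137 times in DKO, at 147 and 242 CPM. The log2 ratio was 0.71 (0.37 to 1.06), against 0.12 (-0.15 to 0.38) in monocyte/macrophage-like cells. Nfkbia had 529 CPM in KO (485 to 576) and 795 in DKO (723 to 872), at 0.59 (0.40 to 0.77). These 2 of 10 members were past 1.5-fold higher, against 8.7% of genes, but Nfkbia, at 1.502-fold, lay at the limit. It was inside 1.5-fold at a resolution of 0.8 (0.51, 0.33 to 0.68). It was also inside with members and lists kept in the clustering (0.57) and without the cells that Scrublet called doublets (0.57). The class held 113 KO and 54 DKO cells and was not alike in the libraries. The 16 monocyte/macrophage markers, all with UMIs in both, summed to 3767 CPM in KO and 7352 in DKO, with Lyz2 at 950 and 5202. The other 15 summed to 2816 and 2149, and 13 of the 16 had a lower CPM in DKO, among them C1qb (148 and 24.7) and C1qc (76.7 and 12.4). The 13 dendritic cell markers, also all with UMIs in both, summed to 1724 and 2614, of which Ccr7 gave 1023 and 1746. In that list 8 had a higher CPM in DKO and 5 a lower one, such as Clec9a (22.9 and 14.1) and Xcr1 (23.9 and 12.4). Their part in these ratios was not tested. A split was made after the data were seen, on the dendritic cell-like class found at a clustering resolution of 0.8. That class held 125 KO and 72 DKO cells, so its parts are not parts of the values above. Nfkbia was at 0.93 (0.74 to 1.12) in most of its cells, 109 of KO and 63 of DKO. It was at -1.69 (-2.24 to -1.20) in a cluster of 16 KO and 9 DKO cells led by Fscn1 and Ccl22. Tnfaip3 split in the same way, at 0.62 (0.26 to 0.97) and -1.78 (-3.43 to -0.58). Nfkb1 and Nfkbiz were at -0.01 and -0.18 in most of the cells, with intervals that include 0, and at -1.35 each in that cluster, from 13 and 8 DKO UMIs. Relb was at 0.67 and 0.29.

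In B cell-like cells 0 of the 8 members with at least 50 UMIs were past 1.5-fold, where 9.85% of genes were higher and 3.93% lower. In T cell-like cells Nfkbiz (82 and 6 UMIs, log2 ratio -1.68) and Relb (70 and 11 UMIs, -0.63) were lower, 2 of 9 members against 16.1% of genes. No member was higher, against 7.73%, and 1 KO cell held 17 of the 82 Nfkbiz UMIs. In neutrophil-like cells 0 of 8 members were past 1.5-fold, where 9.5% of genes were higher and 18.6% lower, with Nfkbia at -0.03 (-0.41 to 0.32).

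The rest of the pathway was taken from 7 lists of 109 genes, of which 103 had at least 50 UMIs in monocyte/macrophage-like cells. In all, 8 were at least 1.5-fold higher in DKO and 15 lower, against 8.91% and 7.01% of all genes. The higher count was near the background. The lower count was above it, and 12 of the 15 were known target genes. Upstream, 0 of 10 IKK and activating kinases and 0 of 7 receptors were past 1.5-fold in either direction. Ikbkb, the kinase of the canonical arm, was at -0.44 (-0.65 to -0.24), and Map3k8, a kinase held in check by the Nfkb1 precursor, at 0.56 (0.27 to 0.83). Among the adaptors Malt1, the protease of the CARD-BCL10-MALT complex, was lower at -0.59 (-0.74 to -0.45), and Irak4 (0.61) and Card9 (0.80) were higher, 3 of 18 in all. Of 5 genes listed beside the Rel and IkB families, 1 was higher, Nkap at 0.66, whose protein is an activator of NF-kB and belongs to neither family. Bcl3, an atypical IkB, was at 0.31.

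Of 13 ubiquitin editors and other brakes, N4bp1 was lower (-0.71), against 7.01% of all genes, and Usp18 (0.73) and Tnip2 (0.67) were higher, against 8.91%. Tnip2, a paralog of Tnip1, was counted 186 times in KO and 60 times in DKO. Tax1bp1, an adaptor of the Tnfaip3 complex, was at -0.55 (-0.69 to -0.41), just inside 1.5-fold.

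Of the 30 known target genes 12 were lower and 2 higher, against 7.01% and 8.91% of all genes. Their median was -0.32, against 0.09 for all genes. Cxcl3, a neutrophil-attracting chemokine, was counted 4519 times in KO and 13 times in DKO, and Nos2, the inducible nitric oxide synthase, 1747 and 18 times. Both are leading genes of the Arg1 Nos2 state, which had 179 KO cells and 1 DKO cell. Without that state 9 of 29 target genes were lower and 5 higher, against 5.47% and 7.71% of 7959 genes, and the median was -0.04 against 0.07 for all genes. Il12b, which encodes a subunit of IL-12 and IL-23, was counted 27 times in KO and 66 times in DKO (log2 ratio 3.57), and Ccl4, a chemokine, was at 0.62. Among the 20 immediate early and stress genes, Hspa1b was lower (-0.66) and Atf3 higher (0.74).

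Across the 13 classes and states of KO with at least 30 cells, each member was set beside all other genes by the correlation of log2(CPM + 10). The points share a library and differ in depth, so r is given as a description. In DKO, unnamed clusters 9 and 10, the Arg1 Nos2 state, nonclassical monocyte-like cells and the smaller C1q-high cluster had fewer than 30 cells and were left out. The r of KO and of DKO thus rest on different points, and a change between them was not tested as a difference between the libraries. Rel was most like Tcf4 (Pearson r 0.93 in KO, and 0.88 over 8 classes and states of DKO), Phlpp1 (0.91 and 0.78) and Pvr (0.90 and 0.72). Nfkbiz was most like Csrnp1 (0.93 and 0.92), Socs3 (0.91 and 0.75) and Runx1 (0.90 and 0.72), and Rela like Dtx3l (0.94 and 0.82). Of the 30 nearest genes in KO, 3 for each member, 13 had r of at least 0.7 in DKO, as Baiap2 for Tnfaip3 (0.83 and 0.90) and Rab43 for Nfkbie (0.92 and 0.89), and 8 had r below 0, as Tox4 for Nfkb2 (0.99 and -0.33). The nearest gene to Tnip1 was Rab8b (0.85 and 0.52).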

How the data were processed

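Colon cells of 1 KO and 1 DKO library were measured by droplet single-cell RNA-seq (10x 3′ v3.1). The authors deposited unnormalised UMI counts for every gene and barcode, from Cell Ranger 6.0.1 and mm10, and used Seurat 4.3.0; free RNA and doublets had not been removed as far as the counts show. Counting 3′ tags, the values say nothing of transcript isoforms or protein.

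Following the study, the filter kept 300 to 5000 genes per cell and mitochondrial UMIs of no more than 10%, and both libraries were clustered together (Seurat 5.3.0, R 4.3.3; 2000 variable genes, 30 components, 20 neighbours, Louvain resolution 0.3). The members and the listed pathway genes were left out of the variable genes. Clusters were named from marker lists: a marker counted with at least 20 UMIs, 25% of its top level and 20% of the cluster's cells, and 3 were needed. A cluster led by genes of another class, or with a median depth under that of its library divided by 3, stayed unnamed. Monocyte/macrophage-like cells were clustered again into states. The class and state names are rebuilt and can differ from the study's own annotation, which was not used here. Doublets were kept; Scrublet (scanpy 1.11.5) called 6 of 2584 and 1 of 742 barcodes, too few to rely on, and removing the 5% with the highest scores was an alternative.

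UMIs were summed per library and class (total UMIs 12549471 and 3414944). Levels have exact Poisson intervals, shares exact Clopper-Pearson intervals, and log2 ratios (0.5 counts added to each sum) exact conditional intervals, all at 95% and for counting error only. A gene was called past 1.5-fold where both libraries together held at least 50 of its UMIs (for a class against other cells, within the library). With 1 library per genotype no p-value is given. Ratios were tested on simulated data. Thinning to 1500 UMIs left out 244 KO and 71 DKO cells. Gene positions are from GENCODE M21 (GRCm38); 30934 of 31053 genes matched.

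All members and, from each pathway list, at most the 2 highest and the 2 lowest ratios were named, with the 3 genes most like a member where shown. The members, lists and rules were chosen with earlier results of these data known. Alternatives were finer and coarser clustering, other cell filters, a gate on each cell, cells with a Lyz2 UMI, TMM scaling (edgeR 4.0.16), 1 count added, a mean over cells, states weighted as in KO, a minimum of 10 UMIs and thinning to 1000.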

Additional observations from a re-analysis of the deposited data

Results flagged for a closer look

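Each result here had a ratio of DKO over KO whose interval lay on the other side of 0 from that of the same gene in monocyte/macrophage-like cells; the differences were not tested. Nfkbia, the IkB gene, was at 0.59 on the log2 scale in dendritic cell-like cells and at 0.56 (0.27 to 0.85) in unnamed cluster 4 (257 UMIs in KO and 166 in DKO), against -0.16 in monocyte/macrophage-like cells. That last value was below 0 under 11 of 15 alternatives. It was 0.02 (-0.09 to 0.12) without the Arg1 Nos2 state and 0.10 (0.01 to 0.18) in cells with a Lyz2 UMI, so the contrast in sign depends on the setting. After thinning, the share of cluster 4 cells with an Nfkbia UMI was 45.3% in KO and 47.8% in DKO, and that of dendritic cell-like cells 50.9% and 49.1%, so the shares were close while the levels were apart. Tnip1 was at 1.52 (0.49 to 2.68) in B cell-like cells, from 12 and 24 UMIs, below the 50 UMIs asked of a called gene. Without the cell with the most Tnip1 UMIs in each library the counts are 11 and 14, and the thinned shares were 3.79% and 3.11%.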

How the results depend on the processing

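Tnip1 in monocyte/macrophage-like cells was lower in DKO by more than 1.5-fold under all 15 alternatives, with log2 ratios from -1.29 to -0.80. Its interval reached inside 1.5-fold with a gate on each cell (-0.81, -1.10 to -0.55) and in cells with a Lyz2 UMI (-0.80, -1.07 to -0.54). The log2 ratio of all members summed, -0.15, moved to -0.30 at resolution 0.1, -0.064 with a gate on each cell, -0.031 in cells with a Lyz2 UMI, -0.23 under TMM scaling, -0.059 as a mean over cells, -0.22 with states weighted as in KO and -0.073 without the Arg1 Nos2 state, and stayed below 0. TMM scaling moved the median gene by -0.08 on the log2 scale. Single members other than Tnip1 ranged over 0 under some alternatives, as Nfkbia (-0.44 to 0.10), Nfkbiz (-0.80 to 0.09), Tnfaip3 (-0.38 to 0.05), Rel (-0.16 to 0.06) and Nfkb2 (-0.32 to 0.06), while Rela kept to -0.53 to -0.38 and Relb to 0.05 to 0.43. Members summed in the resident state against other monocyte/macrophage-like cells of KO moved from 0.83 to 0.75, and in the Arg1 Nos2 state from 0.47 to 0.54, with members and lists kept among the variable genes. No resident state was named at resolutions 0.8 and 0.1 or with the stricter cell filter, and no Arg1 Nos2 state at 0.1, so those gave no value. The share of cells with a Tnip1 UMI, 15.8% and 7.38%, was 38.8% and 22.6% without thinning and 11.3% in KO and 4.85% in DKO at 1000 UMIs. The pathway lists gave 6 higher and 19 lower genes under TMM scaling 9 and 16 with a minimum of 10 UMIs, and 9 and 11 without the Arg1 Nos2 state, against 8 and 15. The causes were not tested, except that weighting or leaving out states changes their make-up by construction. No paired analysis was possible because each genotype had 1 library, and no library could be left out. Fewer than 50 UMIs of most members in neutrophil-like, B cell-like and T cell-like DKO cells leave intervals there that mostly reach past 1.5-fold.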
